A study of Mus musculus with 19 samples.

Results

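Ciliary transport genes and genes of Bardet-Biedl syndrome were described in mouse retina after Pou3f1 was added and after it was removed. The genes were chosen by name. They comprised 14 genes with an Ift number, 8 with a Bbs number and 18 others from a fixed list of motors, GTPases, cargo adaptors and connecting cilium proteins, which gave 40 genes of the 35734 listed in all. Every member had an adjusted p in all 3 comparisons. Grouped by the complex their proteins belong to, they were 8 BBSome genes including Arl6, 3 genes of the chaperonin-like Bardet-Biedl proteins, 6 of the intraflagellar transport complex A (IFT-A), 12 of complex B (IFT-B), 4 of kinesin-2, 2 of dynein-2, 3 of ciliary GTPases and membrane cargo, and 2 of the connecting cilium.

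A cilium has no ribosomes, so its proteins are carried in from the cell body. Intraflagellar transport moves them along the axoneme, with kinesin-2 and IFT-B driving trains outward and dynein-2 and IFT-A bringing them back. The BBSome is a coat complex that the GTPase Arl6 recruits to membranes and that ferries membrane proteins through the base of the cilium; its assembly needs the chaperonin-like proteins Mkks, Bbs10 and Bbs12. In rods and cones the outer segment is a modified cilium joined to the cell body by the connecting cilium, and loss of many of these genes causes retinal degeneration in people and mice.

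The data were RNA-seq of 19 libraries in 6 groups. Wild-type CD1 pups were electroporated in vivo at postnatal day 1, and cells marked by GFP were sorted and pooled to about 150000 cells a library, either 48 h later (3 Pou3f1 and 3 Gfp libraries) or 14 days later (5 Pou3f1 and 4 Gfp libraries). The labels give the later age as 14 days after electroporation, whereas the protocol text gives postnatal day 14. The third comparison used whole retinas of C57B6J mice at embryonic stage E17.5, with 2 homozygous Pou3f1 knockout (KO) and 2 heterozygous (HET) libraries, so the HET libraries already carried 1 mutant allele. The plasmid's promoter is not given in the sources used here, and electroporation reaches a part of the retinal cells. Each electroporated library was a pool of retinas, and whether pools of a group shared animals or litters is not stated, so the p-values measure the spread between these libraries, which may be in part technical.

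The authors deposited 1 table per comparison, with 1 line per gene and no value per library, so the values below are the authors' log2 fold changes with their standard errors (SE) and adjusted p, and no spread between libraries can be shown. The depth of each library is unknown. The mean normalized counts in the authors' deposited tables summed to 16020842 at 48 h and 38507471 at 14 days, and the members' median SE was 0.19 at 48 h and 0.10 at 14 days on the log2 scale. The E17.5 table holds neither SE nor counts. No header names the direction of a fold change. It was read from Pou3f1 itself, which in the authors' deposited tables was then 1.87-fold higher at 48 h (adjusted p = 0.0233), 47.6-fold higher at 14 days (adjusted p = 3.40e-88) and 0.620-fold at E17.5 (adjusted p = 1.98e-08), so Pou3f1 is no independent check of the labels. The mean normalized count of Pou3f1 over both groups was 37278.7 at 48 h and 16971.5 at 14 days. Taken as it stands, 1.87-fold at that 48 h mean would place high Pou3f1 counts in the Gfp libraries too. Shrinkage, uneven libraries and Pou3f1 in the controls cannot be told apart without values per library. This limit holds for every 48 h result below. The words rose and fell are used for genes with an adjusted p under 0.05.

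The upstream sequences of 4 members to which the results return are shown first, from RefSeq on the GRCm38.p6 build. Each lies 5′ of the RefSeq transcription start on the gene's strand and leaves out bases that any annotated exon covers. Bbs7 fell at 14 days and Ift57 rose in KO retinas, and both, picked as examples, hold letters of the RFX paired site. Bbs1, Ift22 and Wdr19 hold it too and were called in no comparison. Mkks fell at 14 days and rose in KO retinas, and Ttc8 fell at both times after electroporation. Capitals mark matches to the RFX core, the RFX paired site or the CCAAT box, which are spelled out with the promoter results.
Bbs7, chr3:36613478-36613639, minus strand: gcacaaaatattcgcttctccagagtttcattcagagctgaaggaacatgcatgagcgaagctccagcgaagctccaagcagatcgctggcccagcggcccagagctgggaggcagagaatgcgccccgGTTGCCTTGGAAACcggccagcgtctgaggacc
Ift57, chr16:49699044-49699232, plus strand: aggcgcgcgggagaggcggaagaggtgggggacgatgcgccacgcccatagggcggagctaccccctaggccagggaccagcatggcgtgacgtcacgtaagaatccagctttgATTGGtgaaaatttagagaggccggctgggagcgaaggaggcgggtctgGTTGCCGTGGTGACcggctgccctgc
Mkks, chr2:136891407-136891500, minus strand: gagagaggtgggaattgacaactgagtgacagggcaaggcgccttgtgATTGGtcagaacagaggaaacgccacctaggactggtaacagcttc
Ttc8, chr12:98920324-98920573, plus strand: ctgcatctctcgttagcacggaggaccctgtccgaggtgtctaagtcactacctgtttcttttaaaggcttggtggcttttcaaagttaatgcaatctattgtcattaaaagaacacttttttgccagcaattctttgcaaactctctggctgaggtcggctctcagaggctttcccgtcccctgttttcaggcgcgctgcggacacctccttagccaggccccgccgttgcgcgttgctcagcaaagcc

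At 14 days after electroporation 11 of the 40 genes had fallen in Pou3f1 cells and 0 had risen. They were Arl6, Mkks, Ift20, Bbs12, Bbs7, Bbs10, Bbs5, Arl3, Bbs4, Ift74 and Ttc8, and 8 of these 11 belong to the BBSome or to its chaperonin-like helpers. The changes were small: the 11 log2 fold changes in the authors' deposited table lay between -0.63 and -0.30, and 0 reached 2-fold. The 95% interval of the fold change lay within 2-fold for all 40 members and within 1.5-fold for 29. Whether the fold changes were shrunken is not given in the sources used here. At 48 h, however, Kif17 had an SE of 0.27 at a mean normalized count of 10.7. With 3 libraries per group, random sampling of reads alone would give a larger SE. The 48 h values therefore look shrunken toward 0, and intervals from shrunken values are not ordinary 95% intervals. These intervals, those below and the test between times take the authors' values and SE as they stand. Of the members 27.5% fell and 0% rose at 14 days, against 9.21% and 11.5% of the 17789 genes tested. A mean normalized count of at least 1000 was reached by 36 members and by 6918 tested genes, and 11.9% of those tested genes fell. Among the members that fell, Mkks (766) and Bbs10 (466) lay below that count, so the 27.5% and the 11.9% cover unlike sets. The members' median log2 fold change was -0.18, against -0.01 over all tested genes, and 33 of the 40 lay below 0 (82.5%), against 52.2% of all tested genes. In whole populations of cells such as these, fewer cells of a type and less RNA per cell cannot be told apart.

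Markers of cell types moved in the same comparison. All 15 rod markers were listed at 14 days, whereas 4 of the 15 were listed at 48 h. Of the rod markers 12 of 15 fell and 0 rose in the authors' deposited 14 day table, with a median log2 fold change of -0.45. Of the cone markers 8 of 10 fell (median -0.67), and of the Müller glia markers 5 of 8 fell (median -0.61). Of the microglia markers 8 of 8 rose (median 1.54, summed mean normalized count 2023), and 4 of 8 progenitor markers rose (median 0.47). Of the photoreceptor precursor markers 0 of 6 fell and 1 rose (median -0.11), namely Prdm1 with a log2 fold change of 0.43 ± 0.16 (adjusted p = 0.0328) in the authors' deposited table. Among the other lists 2 of 7 amacrine (median 0.41), 2 of 10 ganglion cell (median -0.13) and 1 of 7 bipolar markers rose. Blood vessel markers fell in 1 of 6 cases and pigment epithelium markers rose in 1 of 6, and 0 horizontal cell or lens markers were called. For comparison, 9.21% of all tested genes fell and 11.5% rose. The part of these shifts in the members' values was not tested.

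**Figure D1:**
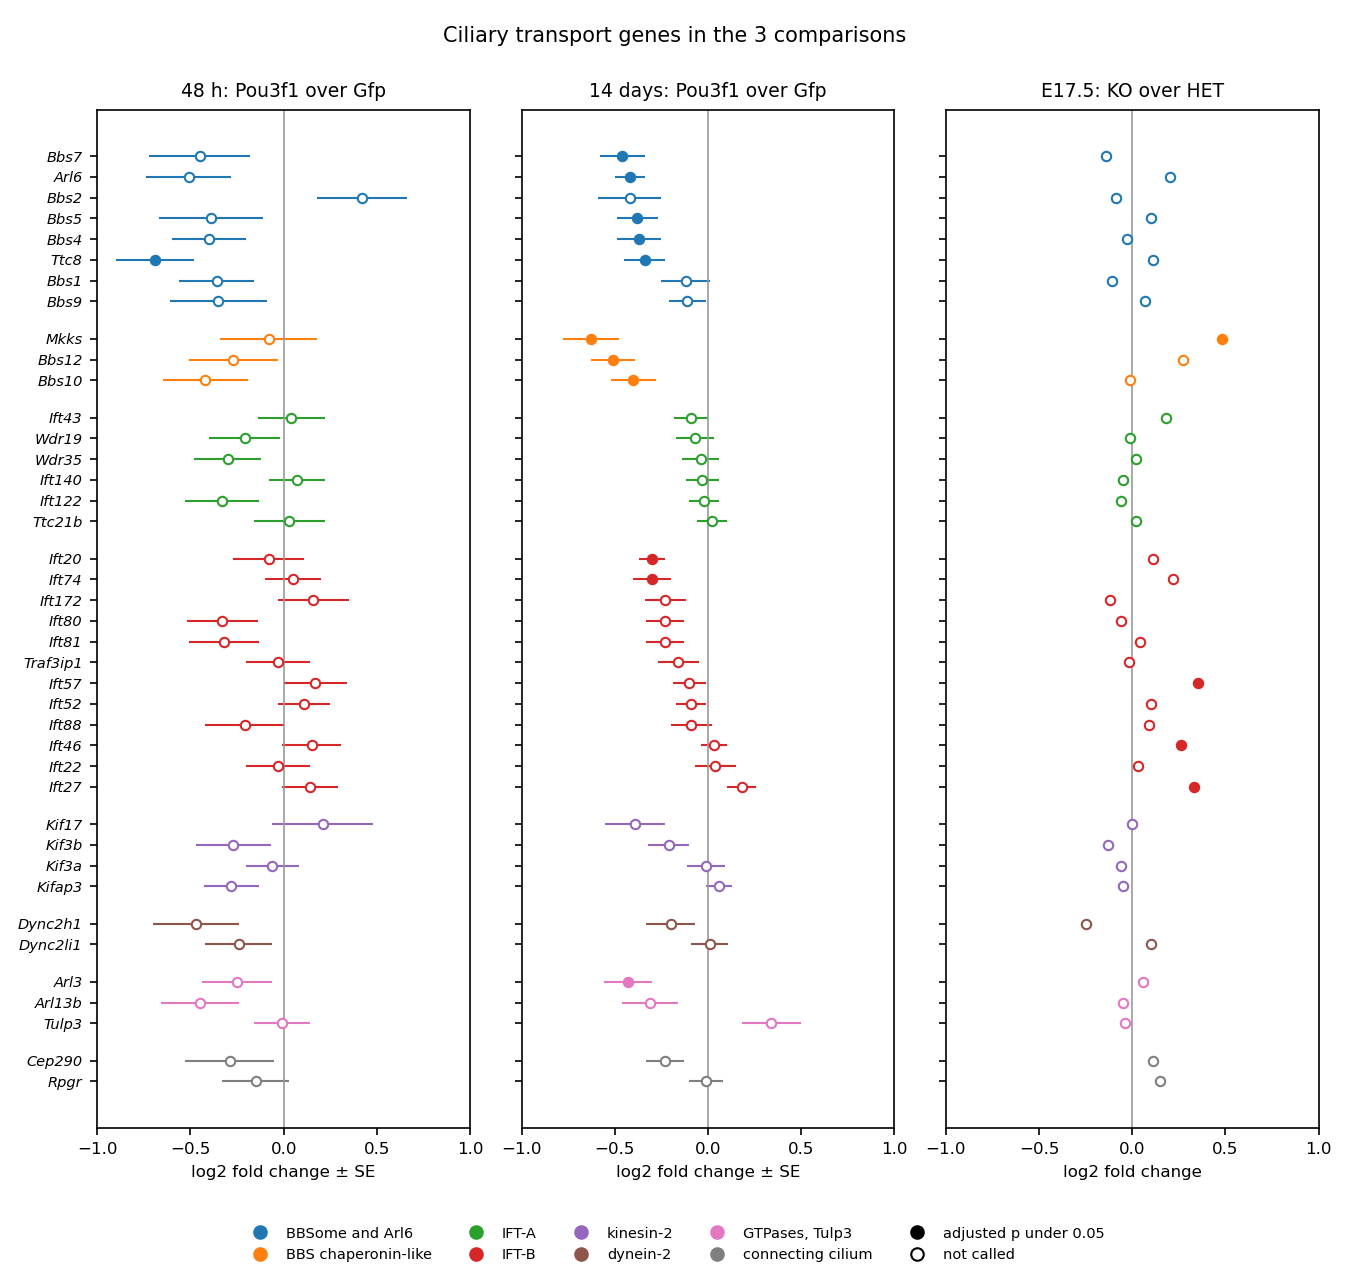
Log2 fold change of each of the 40 genes in the authors' deposited tables, grouped by complex, for Pou3f1 over Gfp cells at 48 h and at 14 days (bars show 1 SE) and for KO over HET retinas at E17.5 (no SE deposited). Filled points have an adjusted p under 0.05: 1 gene at 48 h, 11 genes at 14 days, all on the left of 0, and 4 genes at E17.5, all on the right of 0.

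Among the BBSome genes all 8 had a fold change below 0 at 14 days, and 5 passed the test. Arl6 (chromosome 16, 59612949 to 59639391, minus strand, in the GENCODE M21 annotation of mm10), which recruits the coat to membranes, had the smallest adjusted p of all members: in the authors' deposited table its log2 fold change was -0.42 ± 0.08 (SE; adjusted p = 9.44e-06), or 0.750-fold, at a mean normalized count of 7232 over both groups. Bbs7, a subunit of the BBSome core, fell to 0.727-fold in Pou3f1 cells relative to Gfp cells, with a log2 fold change of -0.46 ± 0.12 (adjusted p = 0.00251) in the authors' deposited table. Bbs5, a subunit that binds phosphoinositides, had -0.38 ± 0.11 there (adjusted p = 0.00839). Bbs4, which binds the pericentriolar protein Pcm1, had -0.37 ± 0.12 (adjusted p = 0.0122), and Ttc8, also called Bbs8, had -0.34 ± 0.11 (adjusted p = 0.0143), both in the authors' deposited table. Bbs2, Bbs1 and Bbs9 did not pass. Bbs2 had a log2 fold change as low as that of Arl6 in the authors' deposited table but a larger SE (-0.42 ± 0.17, adjusted p = 0.0594), while Bbs1, which contacts Arl6, and Bbs9 had -0.12 ± 0.13 and -0.11 ± 0.10 there. The BBSome genes are abundant among the genes tested, with mean normalized counts of 2904 (Bbs5) to 10087 (Bbs1) in the authors' deposited table. Of the 3 genes that missed the threshold, Bbs2 had 3817, next above Bbs5, and Bbs9 had 9156. The part of abundance in the missed calls was not tested.

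All 3 chaperonin-like genes fell. Mkks (chromosome 2, 136873780 to 136891389, minus strand), which acts with Bbs10 and Bbs12 in BBSome assembly, had the lowest fold change of all members, 0.645-fold, with a log2 fold change of -0.63 ± 0.15 (adjusted p = 4.71e-04) in the authors' deposited table. Bbs12 had -0.51 ± 0.12 (adjusted p = 9.23e-04) and Bbs10 had -0.40 ± 0.12 (adjusted p = 0.00630) in the same authors' deposited table. Their mean normalized counts there were 466 (Bbs10), 766 (Mkks) and 1286 (Bbs12). Mkks shares 944 bases, 29.7% of its longest transcript, with the overlapping gene AL731706.1 on the same strand, so reads from these bases could be split between them. In the authors' deposited table AL731706.1 had a log2 fold change of -0.36 ± 0.13 at 14 days (adjusted p = 0.0375).

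Of the 12 IFT-B genes, which form the anterograde trains, 2 fell at 14 days. Ift20, whose protein also sits at the Golgi and sorts membrane cargo for the cilium, had -0.30 ± 0.07 (adjusted p = 4.86e-04) in the authors' deposited table, and Ift74, whose protein binds tubulin together with Ift81, had -0.30 ± 0.10 (adjusted p = 0.0136). Ift172, Ift80 and Ift81 each had a log2 fold change of -0.23 in the authors' deposited table and missed the threshold (adjusted p = 0.112 for Ift172, 0.0765 for Ift80 and 0.0953 for Ift81). The other IFT-B genes lay between -0.16 (Traf3ip1) and 0.18 (Ift27, a small GTPase that releases the BBSome from cilia, adjusted p = 0.119) in that authors' deposited table. None of the 6 IFT-A genes passed, and all 6 lay between -0.09 (Ift43) and 0.02 (Ttc21b), with SE of 0.08 to 0.10, in the authors' deposited table.

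The motors did not pass either. In the authors' deposited 14 day table the subunits of the main anterograde motor, Kif3a, Kif3b and Kifap3, had log2 fold changes of -0.01 ± 0.10, -0.21 ± 0.11 and 0.06 ± 0.07. Kif17, a homodimeric kinesin-2, had -0.39 ± 0.16 (adjusted p = 0.0592) and was the least abundant member, with a mean normalized count of 105 in the authors' deposited table. The retrograde heavy chain Dync2h1 had -0.20 ± 0.13 and the light intermediate chain Dync2li1 0.01 ± 0.10 in the authors' deposited table.

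Among the genes for ciliary GTPases and cargo, Arl3 fell and the other 2 did not pass. Arl3 is the GTPase that releases lipidated cargo inside the cilium, and it had a log2 fold change of -0.43 ± 0.13 in the authors' deposited 14 day table (adjusted p = 0.00945), or 0.741-fold. Its longest annotated transcript is 90.9% identical over 93.9% of its 1104 bases to the non-coding gene Gm47414, which is in none of the 3 tables. Arl13b, the exchange factor for Arl3 on the ciliary membrane, had -0.31 ± 0.15 (adjusted p = 0.126), and Tulp3, which loads membrane receptors onto IFT-A, had the highest fold change of all members, 0.34 ± 0.16 (adjusted p = 0.109), both in the authors' deposited table. Of the 2 connecting cilium genes, Cep290 had -0.23 ± 0.10 (adjusted p = 0.0993) and Rpgr -0.01 ± 0.09 in the authors' deposited table.

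At 48 h Ttc8 alone had fallen, and 0 members had risen. In the authors' deposited table its log2 fold change was -0.69 ± 0.21 (adjusted p = 0.0421), or 0.619-fold. That call was lost when p-values were adjusted over all 22294 genes with a p-value in place of the authors' 14714 (adjusted p = 0.0638). Of the members 2.50% fell and 0% rose at 48 h, against 1.56% and 1.48% of the tested genes. The median of the 40 fold changes was -0.22 on the log2 scale, against -0.01 over all tested genes, and 29 of 40 lay below 0 (72.5%, against 50.9% of all tested genes). At an unadjusted p under 0.05 there were 5 members lower (12.5%) and 0 higher, beside 8.46% and 6.29% of all tested genes.

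Of the 8 BBSome genes 7 had fold changes below 0 at 48 h, with Bbs2 as the exception at 0.42 ± 0.24 (adjusted p = 0.428) in the authors' deposited table. The chaperonin-like genes lay between -0.42 (Bbs10) and -0.08 (Mkks), and the IFT-B genes between -0.33 (Ift80) and 0.17 (Ift57), in that authors' deposited table. Dync2h1 had -0.47 ± 0.23 (adjusted p = 0.304) and Arl13b -0.45 ± 0.21 (adjusted p = 0.290) there, in the authors' deposited table. Of the 11 genes that fell at 14 days, 10 lay below 0 at 48 h, Ift74 being the other at 0.05 ± 0.15. The 95% interval at 48 h lay within 1.5-fold for 17 members, fewer than at 14 days. As the 48 h values look shrunken toward 0, these intervals may be too narrow and too near 0. At this time the photoreceptor precursor markers had fallen in 4 of 6 cases (median -0.66), among them Prdm1 with a log2 fold change of -0.75 ± 0.17 in the authors' deposited table, and 0 of 4 rod markers passed the test (median -0.51). Among the other lists 1 of 6 blood vessel markers fell and 1 of 4 pigment epithelium markers rose. For comparison, 1.56% of all tested genes fell and 1.48% rose. The part of these markers in the members' values was not tested.

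The change over time in the effect of Pou3f1 was tested gene by gene, as the 14 day minus the 48 h log2 fold change with the SE of both, by a two-sided z test. At an adjusted p under 0.05, 0 of the 40 members differed, against 6.14% of the 14580 genes tested. The nearest was Bbs2, with a difference of -0.85 ± 0.30 (SE; adjusted p = 0.0624), whose fold change lay below 0 at 14 days and above 0 at 48 h. At an unadjusted p under 0.05 Kifap3 (difference 0.33 ± 0.17) and Ift74 (difference -0.35 ± 0.18) joined it. The 95% interval of the difference lay within 1 log2 unit of 0 for 37 members. The z test makes no allowance for shrinkage, and the 48 h values look shrunken toward 0. It therefore cannot decide whether the genes called at 14 days and not at 48 h responded differently at those times or alike.

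The members stood higher among the genes of the 14 day table than among those of the 48 h table. Levels were set per length, as the authors' mean normalized count over both groups divided by the length of the longest annotated transcript and scaled to sum to 1000000 over the genes of a table; the 2 tables were normalized separately, so a ratio between them describes the tables and has no test. The members' median level was 32.8 at 48 h and 67.2 at 14 days, against 24.1 and 14.4 over all tested genes. The 14 day level was above the 48 h level for 33 of 40 members, with a median ratio of 1.84, against 0.920 over 14565 genes.

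The BBSome genes had the highest median ratio of the 8 groups, 4.66. Their levels lay between 28.0 (Bbs5) and 80.4 (Arl6) at 48 h and between 105 (Bbs2) and 360 (Arl6) at 14 days, with ratios of 3.26 (Bbs2) to 6.57 (Bbs7). The IFT-B ratios, by contrast, lay between 0.749 (Ift27) and 1.90 (Ift22), and those of IFT-A between 1.19 (Ift140) and 2.55 (Ift122). Within kinesin-2 the ratio was 0.685 for Kif3a and 3.34 for Kif3b. Arl3 was the member with the highest level in both tables, 208 at 48 h and 512 at 14 days, and Kif17 the lowest, 0.531 and 2.56. Tulp3 had the lowest ratio, 0.397.

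**Figure D2:**
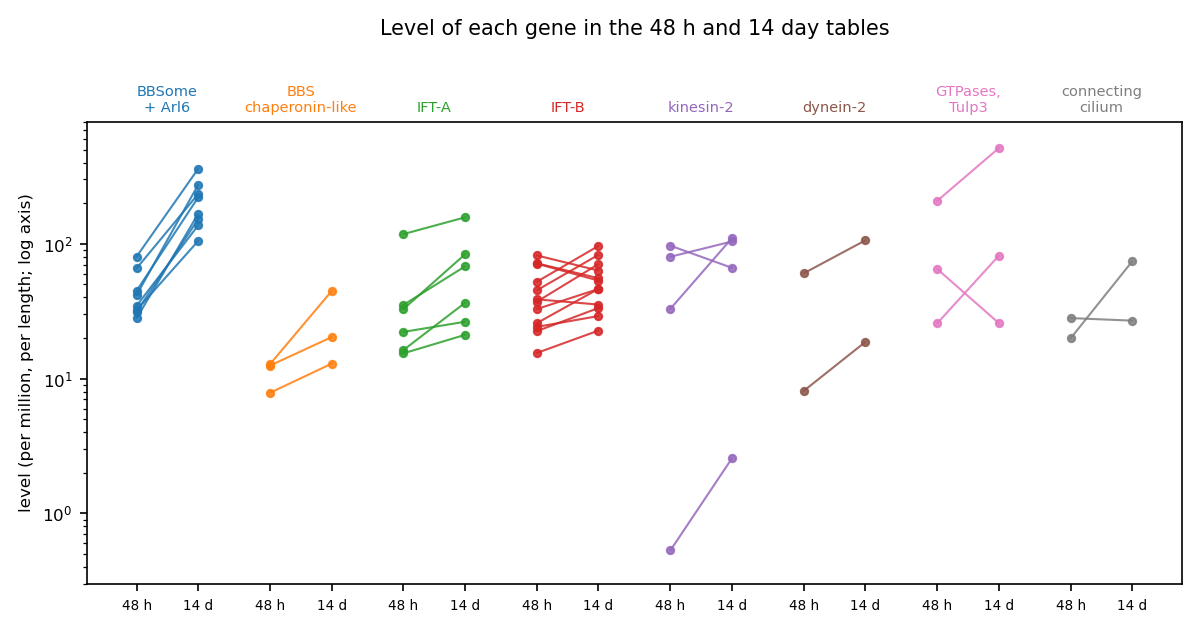
Level of each gene in the 48 h and the 14 day table (per 1000000, per length of the longest transcript; log axis), with 1 line per gene and the genes grouped by complex. All 8 BBSome genes are higher at 14 days, between 28.0 and 80.4 at 48 h and between 105 and 360 at 14 days, while IFT-B lines stay closer to level.

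Members with the steeper ratios tended to have the lower fold changes at 14 days, with exceptions. Across the 40 genes the ratio of levels and the 14 day log2 fold change had a Spearman correlation of -0.60, given as a description, since the genes come from the same libraries and both measures use the 14 day table. The 11 genes that fell had a median ratio of 3.48 and the other 29 a median of 1.75. Ift74 had the lowest ratio among those that fell, 0.773. Mkks, the member with the lowest fold change, had a ratio of 1.62, and Bbs10 had 1.64, both below that 1.75. Bbs1 and Bbs9 had ratios of 4.84 and 4.93 without passing the test.

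**Figure D3:**
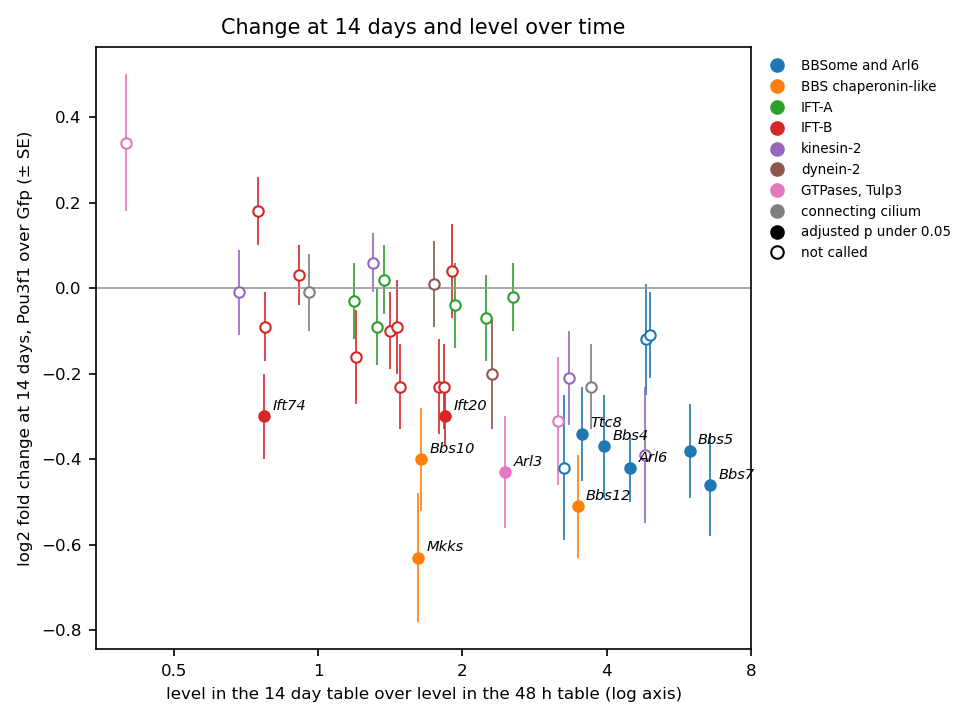
Log2 fold change of each gene at 14 days, Pou3f1 over Gfp cells, from the authors' deposited table (bars show 1 SE), against the ratio of its level in the 14 day table to its level in the 48 h table (log axis). Genes with an adjusted p under 0.05 are filled and named. Most lie to the lower right, while Ift74 (ratio 0.773), Mkks (1.62) and Bbs10 (1.64) lie further left.

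In KO retinas at E17.5, 4 of the 40 genes had risen against HET retinas and 0 had fallen. Of these, 3 belong to IFT-B. Ift57, an IFT-B subunit that binds Ift20 and whose upstream sequence is shown above, had a log2 fold change of 0.35 (adjusted p = 0.00216) in the authors' deposited table, or 1.28-fold. Ift46, needed for outer dynein arm transport in Chlamydomonas, had 0.26 (adjusted p = 0.00369), and Ift27 had 0.33 (adjusted p = 0.0288), both in the authors' deposited table. Mkks was the other, with 0.48 (adjusted p = 0.00240), or 1.39-fold, in the authors' deposited table. Among all 14821 genes tested 4.70% rose and 5.34% fell. The members' median log2 fold change was 0.03, against 0.003 over all tested genes.

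Mkks was the only member called in the KO comparison and in an electroporation comparison. The share of all tested genes called in both was not computed. Whether a single shared member exceeds a random overlap was therefore not tested. Mkks was 1.39-fold in KO over HET retinas and 0.645-fold in Pou3f1 over Gfp cells at 14 days, from the authors' deposited tables. The opposite signs in this single gene are a description only. AL731706.1, with which Mkks shares exon bases, had a log2 fold change of -0.06 at E17.5 (adjusted p = 0.886). Of the 11 genes that fell at 14 days 8 lay above 0 at E17.5, as did 23 of all 40 members and 50.8% of all tested genes, and 7 of those 8 did not pass the test there, among them Bbs12 with 0.27 (adjusted p = 0.202) in the authors' deposited table. No BBSome gene passed at E17.5, where the 8 lay between -0.14 (Bbs7) and 0.20 (Arl6) in the authors' deposited table. Dync2h1 had the lowest log2 fold change, -0.25 (adjusted p = 0.0895). Ift74 and Kif17 lie on chromosome 4 with Pou3f1, and neither passed at E17.5. Ift57 shares 7.86% of its exon bases with the antisense gene Gm15518, and whether counting used strand is not given in the sources used here.

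Markers of amacrine cells fell in 6 of 7 cases in the KO retinas (median -0.93 in the authors' deposited table), and 3 of 4 lens markers rose (median 0.56). Of the photoreceptor precursor markers 2 of 6 fell, among them Otx2 with -0.35 (adjusted p = 0.00335) in the authors' deposited table, and 0 of 7 rod markers passed. Among the other lists 2 of 5 horizontal cell, 2 of 6 blood vessel, 2 of 8 progenitor and 1 of 8 cone markers fell, and 0 of these rose. Müller glia markers had 2 of 8 lower and 1 higher, and ganglion cell markers 1 of 10 lower and 1 higher. For comparison, 5.34% of all tested genes fell and 4.70% rose. The part of these markers in the members' values was not tested.

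At 14 days 24 of the 131 tested genes in 9 wider cilium gene lists fell (18.3%) and 13 rose (9.92%), beside 9.21% and 11.5% of all tested genes. Of 17 tested genes of the photoreceptor cilium and axoneme 9 fell and 0 rose (median -0.35), led by Pcare, an actin regulator at the base of the outer segment, with a log2 fold change of -0.61 ± 0.15 (adjusted p = 0.00130) in the authors' deposited table. Rp1, a photoreceptor microtubule protein, had -0.45 ± 0.15 (adjusted p = 0.0157), and Fam161a, a connecting cilium protein, had -0.53 ± 0.17 (adjusted p = 0.0159), both in the authors' deposited table. Of 27 transition zone genes 4 fell and 0 rose (median -0.12). Among these 4 was Rpgrip1, the connecting cilium anchor of Rpgr, at -0.51 ± 0.16 (adjusted p = 0.00889) in the authors' deposited table.

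Of the 8 genes for lipidated ciliary cargo, its carriers and related GTPase proteins, 3 fell and 1 rose. The carriers Pde6d and Unc119 had -0.36 ± 0.10 (adjusted p = 0.00326) and -0.40 ± 0.13 (adjusted p = 0.0144) in the authors' deposited table, and Cys1, a lipidated ciliary protein, had -1.04 ± 0.24 (adjusted p = 4.02e-04). The related Unc119b rose there by 0.24 ± 0.07 (adjusted p = 0.00306). Of the 13 further IFT and BBS genes 1 fell, Ttc26, an IFT-B protein also called Ift56, with -0.35 ± 0.12 (adjusted p = 0.0282) in the authors' deposited table. Of the 9 dynein-2 accessory genes 2 fell and 0 rose, and of the 21 basal body genes 2 fell and 0 rose, beside 9.21% of all tested genes that fell.

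Hedgehog signalling runs through the cilium, and 6 of its 14 genes rose at 14 days while 0 fell. Hhip, a secreted antagonist and target of the pathway, had a log2 fold change of 2.57 ± 0.25 (adjusted p = 2.71e-21) in the authors' deposited table, and the ciliary receptor Gpr161 had 1.12 ± 0.24 (adjusted p = 1.32e-04). Of the 14 genes for tubulins and tubulin-modifying enzymes 5 rose and 2 fell, with Tubb2b at 1.51 ± 0.28 (adjusted p = 3.83e-06) in the authors' deposited table. Of the 8 RFX and FOXJ1 factors, which control ciliary genes in many animals, Rfx2 fell with -0.67 ± 0.17 (adjusted p = 0.00118) and Rfx7 rose with 0.35 ± 0.13 (adjusted p = 0.0306) in the authors' deposited table.

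At 48 h 3 of the 124 tested genes in these lists were called, 2 lower (1.61%) and 1 higher (0.806%), beside 1.56% and 1.48% of all tested genes. They were Mak, a kinase that limits ciliary length, with -0.92 ± 0.25 (adjusted p = 0.0137), Cdon, a hedgehog co-receptor, with -0.69 ± 0.14 (adjusted p = 2.38e-04), and Dynlt1b, a dynein light chain, with 0.55 ± 0.17 (adjusted p = 0.0337), all in the authors' deposited table.

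At E17.5 6 of the 126 tested genes in these lists rose in KO retinas (4.76%) and 5 fell (3.97%), beside 4.70% and 5.34% of all tested genes. Those that rose included Rabl2 and Bbip1, which encodes the smallest BBSome subunit, with log2 fold changes of 0.38 (adjusted p = 0.00102) and 0.32 (adjusted p = 0.0104) in the authors' deposited table. The others that rose were Tctex1d2, Poc1b, Kif7 and Tuba1b, with 0.24 (Poc1b) to 0.47 (Tctex1d2) in the authors' deposited table. Those that fell were Cdhr1 with -0.52 (adjusted p = 8.97e-05), Gas1 with -0.49 (adjusted p = 1.45e-05), Cep97 with -0.31 (adjusted p = 5.11e-04), Hhip with -0.31 (adjusted p = 0.0152) and Kif24 with -0.25 (adjusted p = 0.0414), all in the authors' deposited table. Among the list genes called at 14 days and at E17.5, Tctex1d2 and Hhip had opposite signs, with 14 day log2 fold changes of -0.32 ± 0.11 (Tctex1d2) and 2.57 ± 0.25 (Hhip). Kif24, with -0.49 ± 0.16 (adjusted p = 0.0142) at 14 days, and Kif7, a hedgehog regulator with 0.65 ± 0.19 (adjusted p = 0.00522) at 14 days and 0.31 (adjusted p = 0.0499) at E17.5, had the same sign in both of the authors' deposited tables.

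Promoter windows were available from RefSeq for 36 of the 40 members, 38 windows of 250 bases before to 50 after the start. The RFX core GTTGCC, searched on both strands, was in 14 of the 38 windows (36.8%) and in 12.5% of 32851 windows of all genes. The RFX paired site, GTNNCC followed by 0 to 3 bases and GGNNAC, was in 6 windows (15.8%) and in 3.86% of all windows. These were the windows of Bbs1, Bbs4, Bbs7, Ift22, Ift57 and Wdr19, and a core can lie inside a paired site, as it does in Bbs7 and Ift57. The CCAAT box was in 25 windows (65.8%) and in 37.4% of all windows. The members' windows were also richer in G and C, with a median of 61.0% against 56.3% in windows of protein-coding genes and 52.7% in all windows, and held a median of 22.0 CG steps against 13.0 and 7.0. Letters that match are a description of the sequence and not a bound site.

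In the Bbs7 sequence printed above the paired site GTTGCCTTGGAAAC runs from position -121 to -108. The Ift57 sequence holds GTTGCCGTGGTGAC, and a further match, GTTGCCTGGTAAC, begins at position -60, past the stretch that is printed. Bbs4 has GTCGCCCGGGAAAC, which begins at position 23, after its start; position 0 is the first transcribed base. The printed Mkks and Ttc8 sequences hold neither RFX form, and the Mkks sequence holds a CCAAT box on the opposite strand. Of the 12 windows of genes that fell at 14 days, 2 held the core (16.7%) and 2 the paired site (16.7%). The octamer ATGCAAAT, bound by POU factors, was in 0 of the 38 windows and in 1.74% of all windows. The CRX core TAATCC was in the window of Bbs1 (2.63%) and in 7.06% of all windows.

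**Figure D4:**
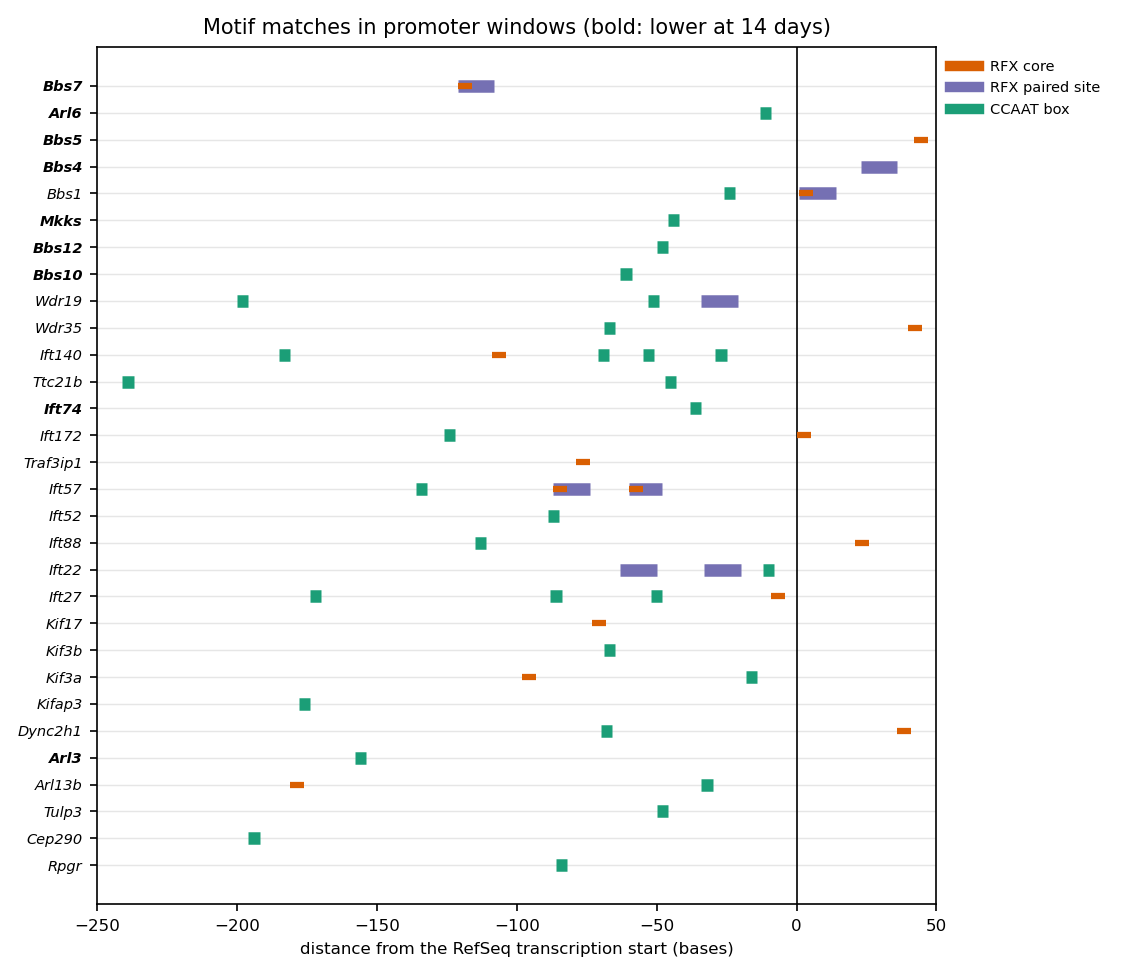
Position of each motif match relative to the RefSeq transcription start (bases; 0 is the first transcribed base) in the promoter windows of the members that hold one, with genes that fell at 14 days in bold. RFX paired sites are in 6 genes, of which Bbs4 and Bbs7 fell at 14 days.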

How the data were processed

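RNA-seq tables of 3 comparisons were read as deposited. Per the submitters' processing notes the authors used Salmon, DESeq2 and MACS2 with the mm10 build; the sources used here give no versions, annotation, design formula or shrinkage of fold changes. The authors' deposited unit is a log2 fold change, with its SE and a Wald score in the electroporation tables. The signal in those tables is, per the file headers, the authors' mean normalized count over both groups. The p-value and adjusted p were deposited by the authors for every comparison; Benjamini-Hochberg values recomputed over those genes came within 5.60e-06 of the deposited ones, and the fold change over its SE within 4.45e-07 of the Wald score. The tables list 22294 (48 h), 23635 (14 days) and 35734 (E17.5) genes, of which 14714, 17789 and 14821 have an adjusted p. The file name of the E17.5 table gives another embryonic day, and the age of the sample labels was used.

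The call for a gene was the deposited adjusted p at a limit of 0.05, with no refit. The z test between times covered 14580 genes that had adjusted values at 48 h and at 14 days, and was Benjamini-Hochberg adjusted. It was run on made-up data with known answers, drawn with the deposited SE as the true spread and without shrinkage. That run checked the calculation and not whether the deposited values meet the test's assumptions. Levels used GENCODE M21 transcript lengths; all 40 identifiers and symbols were found there. Similar transcripts were sought with blastn 2.17.0 (at least 90% identity over 200 bases, expect value 1e-10). Scripts ran in Python 3.11.15 (scipy 1.17.1, numpy 2.4.6, pandas 2.3.3; plots in matplotlib 3.10.9).

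The members and gene lists were chosen with earlier results of these data known. Every member could be named; of each pathway list up to 4 genes and of each marker list up to 2 genes per comparison, by smallest adjusted p. Alternatives were a limit of 0.01, a 2-fold minimum, adjustment over all genes with a p-value, limits on mean count, and fold changes set against the median gene. Lists were described by counts and medians and not tested.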

Additional observations from a re-analysis of the deposited data

How the results depend on the processing

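Of the counts of called genes, 5 moved by more than 1.5 times under an alternative. With a 2-fold minimum the count of called members was 0 at 14 days (11 without it), 0 at E17.5 (4 without it) and 0 at 48 h (1 without it). At 48 h the count was also 0 at an adjusted p under 0.01 and 0 with p-values adjusted over all genes with a p-value; at an unadjusted p under 0.05 the authors' deposited table had 5 members lower and 0 higher (12.5% and 0%, beside 8.46% and 6.29% of all tested genes). At 14 days 8 of the 11 genes were still called at 0.01, and all 11 were called under the limits on mean count and under adjustment over all genes. At E17.5 3 of the 4 genes were still called at 0.01. The median log2 fold change of the members was -0.16 at 14 days and 0.02 at E17.5 when set against the median gene, against -0.18 and 0.03. The test between times called 0 members under every alternative run, with 3 members at an unadjusted p under 0.05.

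No paired analysis was possible because the tables hold no values per library, and no library was left out in turn for the same reason. Whether a single library carries a change is unknown, as is the depth of each library, and the deposited SE is the measure of precision. The E17.5 table has no SE, and no interval is given there.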
